A study of Mus musculus with 4 samples.

Results

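The genes described here are 10 genes of the basement membrane that parietal endoderm is known to make in large amounts. They were chosen by name, as the rows for *Lama1*, *Lama5*, *Lamb1*, *Lamc1*, *Col4a1*, *Col4a2*, *Nid1*, *Nid2*, *Hspg2* and *Sparc*, and make up 10 of the 24347 gene rows deposited for each sample. The choice was made with earlier results of these data known, so the set is not independent of them. RNA-seq was performed on embryoid bodies (EBs). These are clusters that mouse embryonic stem cells (mESCs) form, and in which they differentiate, once LIF, the cytokine that holds them undifferentiated, is withdrawn from serum medium. EBs were harvested at day 3 on plates without gelatin and received no other treatment, and their cells are labelled as mESC-derived mesendoderm of strain 129/Ola. WT EBs (WT 1 and WT 2) were compared with EBs carrying a CRISPR/Cas9 deletion of the promoter of *Gm11549* (promoter KO 1 and promoter KO 2), the gene of the micropeptide NEMEP. The promoter KO cells were grown from single sorted cells and chosen by PCR, and the labels do not say whether both promoter KO samples came from the same clone or whether the samples of a genotype were separate cultures. The study describes them as biologically independent, and if they were not separate cultures, the p-values given here measure a spread that may be technical. Values of a WT pair or a promoter KO pair are given in the order of replicates 1 and 2, and the labels do not say whether samples of the same number belong together.

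A basement membrane is a thin sheet of extracellular matrix on which epithelial cells rest. Laminins, trimers of an alpha, a beta and a gamma chain, assemble at the cell surface, and a network of type IV collagen is joined to them through nidogens and the heparan sulfate proteoglycan perlecan. In the mouse embryo, parietal endoderm migrates over the inner face of the trophoblast and secretes the thick Reichert's membrane, which is rich in the laminin of alpha 1, beta 1 and gamma 1 chains, in type IV collagen of alpha 1 and alpha 2 chains, and in *Sparc*.

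*Gm11549*, the targeted gene, lies on the minus strand of chromosome 3 from 36515057 to 36521813 in the GENCODE M21 annotation of GRCm38, from which the positions of the genes are taken. It reached 0.750 and 0.522 FPKM in the WT pair, and it was listed at 0 in promoter KO 1 and at 0.0659 FPKM in promoter KO 2. FPKM counts fragments per kilobase of a transcript and per number of fragments mapped, so levels of different genes are compared here per length. The promoter KO samples were thus below both WT samples at the target, which had too low a level to be tested. The depth, estimated from the value that a single fragment gives, was about 24500000 and 21800000 fragments in the WT pair and 21400000 and 20000000 fragments in the promoter KO pair. Across genes, the WT samples had a Spearman's correlation of 0.98 with each other, as had the promoter KO samples, and between genotypes it was 0.971 to 0.978, nearly as high.

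The 10 basement membrane genes reached at least 1 FPKM in each of the 4 samples. Their summed level was 268.6 and 303.8 FPKM in WT 1 and WT 2, and in promoter KO 1 and 2 it was 447.6 and 500.9 FPKM. In bulk samples, fewer cells of a type and less RNA per cell cannot be told apart, so a higher level here may mean either more cells that express a gene or more RNA in each. The difference between genotypes was tested with limma on log2(FPKM + 1) in 11941 genes, those at 1 FPKM or more in 2 or more samples, and a gene was called at a Benjamini-Hochberg adjusted p under 0.05. On this scale the change of low genes is understated. *Lama1*, *Lamc1*, *Col4a1*, *Col4a2* and *Sparc* were called higher in promoter KO EBs, 5 of the 10 genes, while 1.68% of all tested genes were called higher. By limma, 0 of the 10 were called lower, where 1.89% of all tested genes were, and at an unadjusted p under 0.05 the numbers were 7 higher and 0 lower, against 15.0% and 15.6% of all tested genes. At a fold change above 2 with an unadjusted p under 0.05, 4 of the 10 were higher, against 1.40% of all tested genes. For 8 of the 10 genes both promoter KO samples exceeded both WT samples, as they did for 32.9% of all tested genes, and for 0 of the 10 they were below both, as they were for 32.4% of all tested genes. The median log2 fold change was 0.55 over the 10 genes and 0.0042 over all tested genes. Because the genes were chosen with earlier results of these data known, the counts beside these shares describe the set and do not test it. The gene lists below were chosen in the same way, and the same shares of all tested genes apply to their counts.

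**Figure D1:**
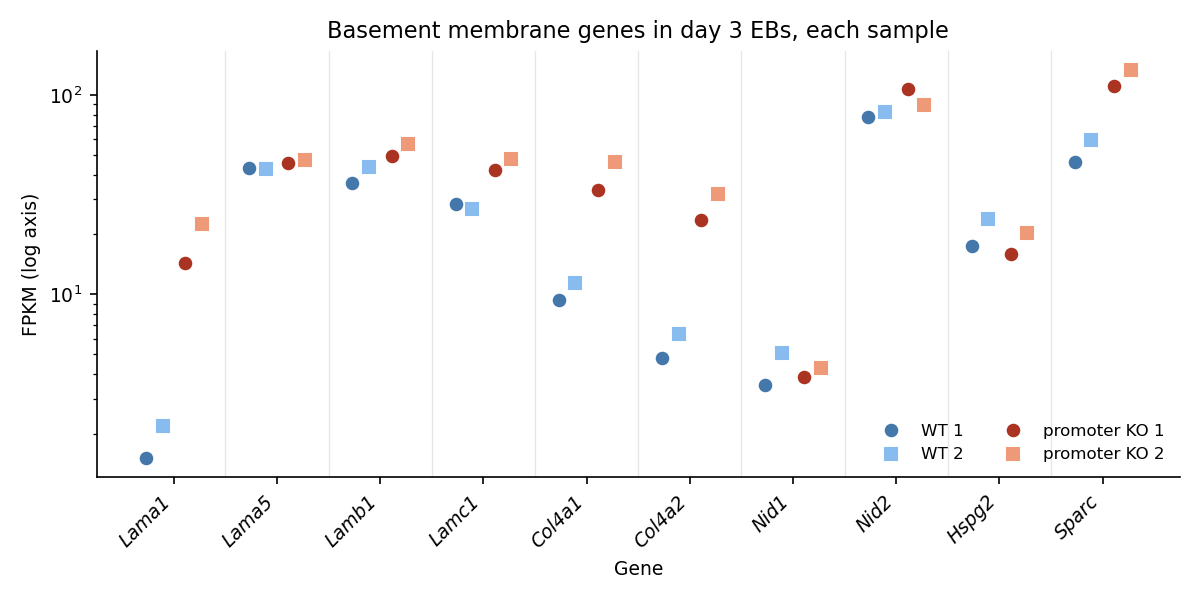
Level of each basement membrane gene in each sample, in FPKM on a log axis, with circles for replicate 1 and squares for replicate 2, WT in blue and promoter KO in red. The gap between genotypes is widest for *Lama1*, *Col4a2* and *Col4a1*, and the samples of the 2 genotypes interleave for *Nid1* and *Hspg2*.

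The calls rested on few samples. Without WT 2, and likewise without promoter KO 1, limma called 0 of the 10 genes and 0 of all tested genes either way. Without WT 1 it called 3 of the 10 higher, with *Lamc1* and *Sparc* lost, and of all tested genes 61 higher and 114 lower. Without promoter KO 2 it called 4 of the 10 higher, with *Lamc1* lost, and of all tested genes 238 higher and 248 lower. The 5 genes were higher in promoter KO in each of these fits. When genes below 1 FPKM were kept in the test, 0 of the 10 and 0 of all 18215 tested genes were called, with adjusted p-values of 0.133 to 0.142 for the 5 genes by limma and Benjamini-Hochberg adjustment. The adjusted p-values that limma gave them lay between 0.005 and 0.210 over the alternatives run. An exact permutation test of a single value in 2 samples against 2 reaches no two-sided p lower than 0.333, and the calls depend on how limma pools the variance of many genes.

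Among the laminin alpha chains, *Lama1* (chromosome 17, 67697259 to 67822647, plus strand) encodes the alpha 1 chain, that of the laminin of Reichert's membrane. Its level was 1.51 and 2.18 FPKM in WT 1 and WT 2, and it was 14.5 and 22.7 FPKM in promoter KO 1 and 2. *Lama1* was thus the lowest of the 10 genes in both WT samples, and both promoter KO samples stood far above them. The mean rose from 1.85 ± 0.48 FPKM (SD, n = 2) in WT to 18.6 ± 5.8 FPKM (SD, n = 2) in promoter KO, a ratio of 10.05. On the log2(FPKM + 1) scale, which understates the change of so low a gene, limma gave a log2 fold change of 2.76 (SE 0.24, 95% interval 2.18 to 3.34) and a Benjamini-Hochberg adjusted p of 0.0208.

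*Lama5* (chromosome 2, 180176373 to 180225859, minus strand) encodes the alpha 5 chain, the most widespread alpha chain, which pairs with the same beta 1 and gamma 1 chains. It was at 42.9 and 42.6 FPKM in WT 1 and WT 2, and at 45.9 and 47.2 FPKM in promoter KO 1 and 2. The promoter KO samples were slightly above the WT samples, and limma gave a log2 fold change of 0.12 (95% interval -0.08 to 0.32) with a Benjamini-Hochberg adjusted p of 0.355. The upper end of this interval is a 1.25-fold higher FPKM + 1 in promoter KO. The 2 alpha chains together were at 44.4, 44.7, 60.3 and 69.9 FPKM in WT 1, WT 2, promoter KO 1 and promoter KO 2. Within a sample, *Lama1* supplied 3.40% of the summed alpha 1 and alpha 5 FPKM in WT 1 and 4.88% in WT 2. In promoter KO 1 this share was 24.0%, and in promoter KO 2 it was 32.4%. *Lama5* therefore supplied the larger share of alpha chain transcripts, per length, in each of the 4 samples, and its share fell by 24.06 percentage points between the genotype means.

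*Lamc1* (chromosome 1, 153218922 to 153332786, minus strand) encodes the gamma 1 chain, shared by most laminins. It was at 28.5 and 26.8 FPKM in WT 1 and WT 2, and at 42.2 and 48.0 FPKM in promoter KO 1 and 2. The groups did not overlap, and the log2 fold change was 0.69 (SE 0.10, 95% interval 0.43 to 0.94, limma, Benjamini-Hochberg adjusted p = 0.0389). Among the called genes *Lamc1* had the smallest change, and it was not past a fold of 2.

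*Lamb1* (chromosome 12, 31265234 to 31329644, plus strand) encodes the beta 1 chain. Its level was 36.3 and 43.7 FPKM in WT 1 and WT 2, and it was 49.8 and 57.1 FPKM in promoter KO 1 and 2. Both promoter KO samples were above both WT samples, but the samples within each genotype also stood apart from each other. limma gave a log2 fold change of 0.41 (SE 0.12, 95% interval 0.11 to 0.71) with a Benjamini-Hochberg adjusted p of 0.0969, which missed the threshold. The ratio of *Lamb1* to *Lamc1* FPKM was 1.27 and 1.63 in WT 1 and WT 2, and in promoter KO 1 and 2 it was 1.18 and 1.19. The ratio of the summed *Lama1* and *Lama5* FPKM to *Lamc1* FPKM was 1.56 and 1.67 in WT 1 and WT 2, and in promoter KO 1 and 2 it was 1.43 and 1.45. Both ratios were lower in the promoter KO samples than in the WT samples, and neither was tested.

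**Figure D2:**
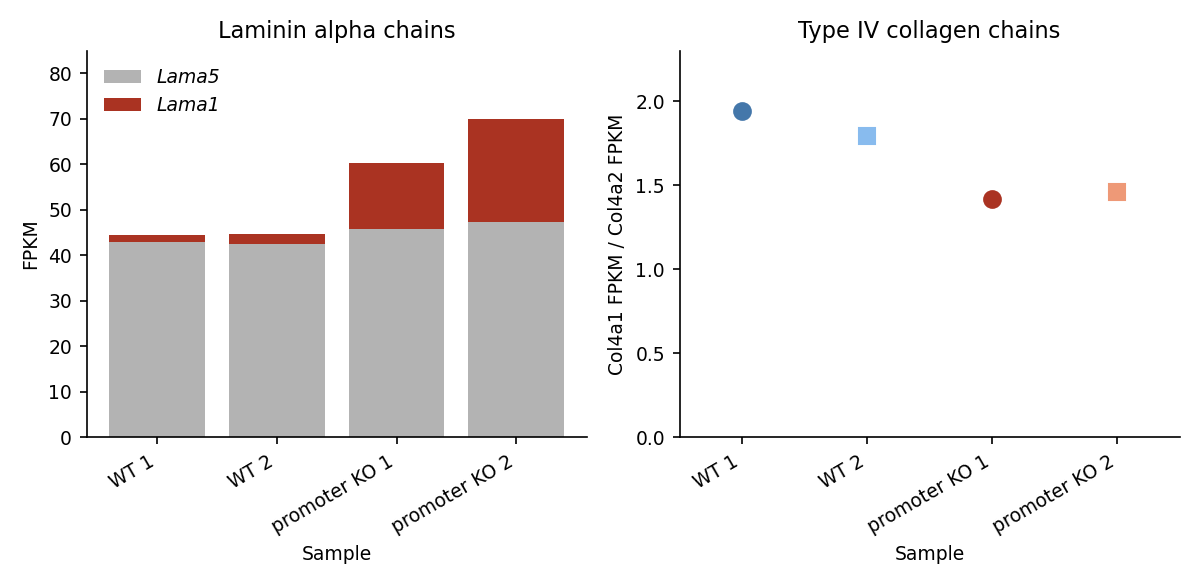
Left, FPKM of *Lama1* (red) stacked on that of *Lama5* (grey) in each sample, and right, FPKM of *Col4a1* divided by that of *Col4a2* in each sample. The *Lama5* bars reach similar heights in the 4 samples while the *Lama1* part is larger in promoter KO, and the collagen ratio falls from 1.94 and 1.79 in WT to 1.42 and 1.46 in promoter KO.

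*Col4a1* and *Col4a2* encode the alpha 1 and alpha 2 chains of type IV collagen, which assemble, a pair of alpha 1 chains with an alpha 2 chain, into the main network of embryonic basement membranes. They lie head to head on chromosome 8 of GRCm38, *Col4a1* on the minus strand from 11198423 to 11312826 and *Col4a2* on the plus strand from 11312805 to 11449287, so that their first exons overlap by 22 bases. This stretch, chr8:11312805-11312826, is printed because the start sites of both genes, 21 bases apart, are its outer bases. It is taken from the RefSeq promoter sequences of GRCm38.p6, given 5′ to 3′ on the strand of each gene, and the capitals mark the 6 letters GGGCGG, the core of a GC box, or their complement.
Col4a2, plus strand: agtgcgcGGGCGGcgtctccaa
Col4a1, minus strand: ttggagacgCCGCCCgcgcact

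*Col4a1* was at 9.37 and 11.4 FPKM in WT 1 and WT 2, and at 33.4 and 46.3 FPKM in promoter KO 1 and 2. *Col4a2* was at 4.83 and 6.35 FPKM in WT 1 and WT 2, and at 23.5 and 31.8 FPKM in promoter KO 1 and 2. Both genes of the shared start region were higher in both promoter KO samples, and in each genotype replicate 2 was the higher sample for both. The mean of *Col4a1* rose from 10.4 ± 1.4 to 39.8 ± 9.1 FPKM (SD, n = 2 per genotype), a ratio of 3.84, with a log2 fold change of 1.83 (SE 0.18, 95% interval 1.39 to 2.27, limma, Benjamini-Hochberg adjusted p = 0.0233). The mean of *Col4a2* rose from 5.59 ± 1.08 to 27.6 ± 5.8 FPKM (SD, n = 2 per genotype), a ratio of 4.95, with a log2 fold change of 2.11 (SE 0.19, 95% interval 1.66 to 2.57, limma, Benjamini-Hochberg adjusted p = 0.0208).

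Within a sample, the ratio of *Col4a1* to *Col4a2* FPKM was 1.94 and 1.79 in WT 1 and WT 2, and in promoter KO 1 and 2 it was 1.42 and 1.46. *Col4a1* was thus the higher of the pair in each sample, per length, and the excess was smaller in promoter KO, with a difference between the genotype means of -0.43 that was not tested. The summed FPKM of both chains was 14.2 and 17.7 in WT 1 and WT 2, and in promoter KO 1 and 2 it was 56.9 and 78.0. *Col4a2* also overlaps *Gm15419* on the opposite strand, and whether counting used the strand is not given in the sources used here.

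*Sparc* (chromosome 11, 55394500 to 55423183, minus strand) encodes a collagen-binding glycoprotein, also called osteonectin or BM-40, that accompanies type IV collagen. It was at 46.0 and 59.3 FPKM in WT 1 and WT 2, and at 110.9 and 133.6 FPKM in promoter KO 1 and 2. The promoter KO samples were well above the WT samples, and *Sparc* became the most abundant of the 10 genes. The ratio of the means was 2.32, and limma gave a log2 fold change of 1.21 (SE 0.15, 95% interval 0.84 to 1.57) with a Benjamini-Hochberg adjusted p of 0.0318.

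*Nid1* (chromosome 13, 13437551 to 13512269, plus strand) and *Nid2* (chromosome 14, 19751265 to 19811787, plus strand) encode the nidogens, which link laminin to type IV collagen. *Nid2* was at 78.0 and 82.4 FPKM in WT 1 and WT 2, and at 107.6 and 89.7 FPKM in promoter KO 1 and 2. Its promoter KO samples lay above the WT samples by little, and the log2 fold change was 0.29 (95% interval 0.03 to 0.55, limma, Benjamini-Hochberg adjusted p = 0.140). *Nid1* was at 3.52 and 5.08 FPKM in WT 1 and WT 2, and at 3.87 and 4.28 FPKM in promoter KO 1 and 2, and the promoter KO samples fell between the WT samples. For *Nid1* limma gave a log2 fold change of -0.05 (95% interval -0.50 to 0.40) and a Benjamini-Hochberg adjusted p of 0.879. *Nid2* exceeded *Nid1* by 16.2 to 27.8 times per length in the 4 samples. The values of both nidogens are uncertain, as are those of *Col4a2*, since *Nid1* shares near-identical sequence with *Gm2399* and overlaps *Gm48682* on the opposite strand, and the exons of *Nid2* overlap those of *Rtraf* on the opposite strand.

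*Hspg2* (chromosome 4, 137468769 to 137570630, plus strand) encodes the core protein of perlecan. Its level was 17.6 and 24.0 FPKM in WT 1 and WT 2, and it was 16.0 and 20.2 FPKM in promoter KO 1 and 2. The groups overlapped, with a log2 fold change of -0.18 (95% interval -0.63 to 0.26, limma, Benjamini-Hochberg adjusted p = 0.524). For *Nid1* and *Hspg2*, neither a fall nor a rise was shown, and the direction changed when WT 2 was left out, to 0.16 for *Nid1* and 0.03 for *Hspg2*, and for *Nid1* also without promoter KO 1, to 0.0096.

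**Figure D3:**
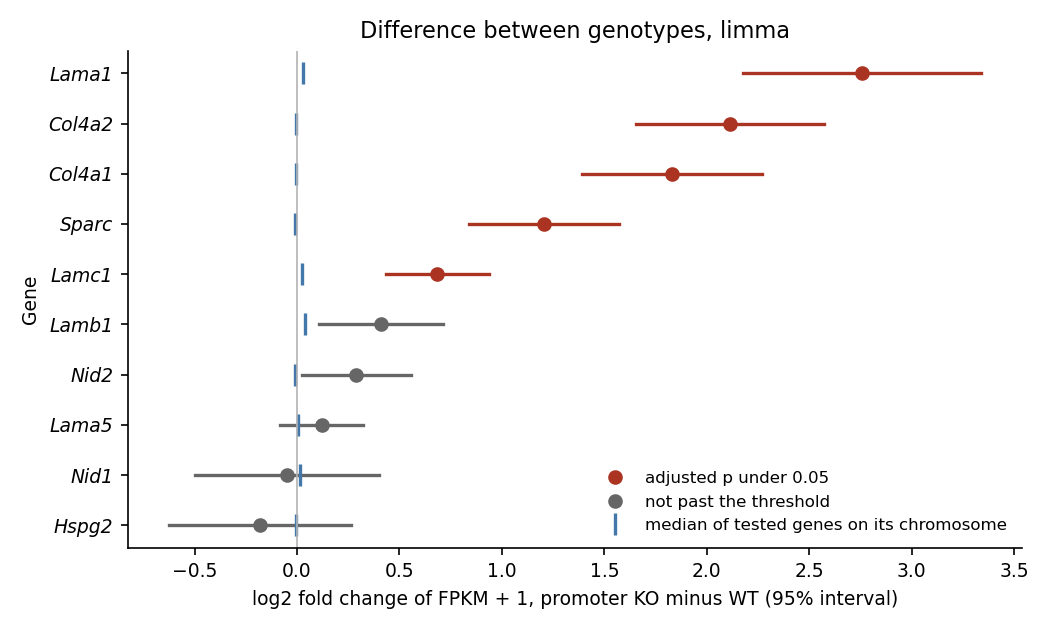
Difference between promoter KO and WT for each gene, as log2 fold change of FPKM + 1 with its 95% interval from limma, red where the Benjamini-Hochberg adjusted p was under 0.05, with a blue tick at the median of all tested genes on the same chromosome. The intervals of the 5 red genes lie above 0, from *Lamc1* at 0.69 to *Lama1* at 2.76, and the chromosome medians lie between -0.01 and 0.04.

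The differences thus varied among the genes of one matrix, from -0.18 for *Hspg2* to 2.76 for *Lama1* on the log2 scale. The intervals of *Lama1* and *Lama5*, the alternative alpha chains, were far apart, although the difference between genes was not tested. The 10 genes lie on 9 chromosomes, and the median log2 fold change of the tested genes on these chromosomes ranged from -0.0092 to 0.0384, so that each called gene stood above the level of its chromosome. In WT EBs the order of the mean levels per length was *Nid2*, *Sparc*, *Lama5*, *Lamb1*, *Lamc1*, *Hspg2*, *Col4a1*, *Col4a2*, *Nid1* and *Lama1*. The samples of *Lama5* overlapped those of *Lamb1* in this order, and those of *Col4a2* overlapped those of *Nid1*. In promoter KO EBs the order was *Sparc*, *Nid2*, *Lamb1*, *Lama5*, *Lamc1*, *Col4a1*, *Col4a2*, *Lama1*, *Hspg2* and *Nid1*, in which *Lama5*, *Lamc1* and *Col4a1* overlapped with their neighbours, as did *Lama1* with *Hspg2*. *Lama1* therefore moved from the last place to the level of *Hspg2*.

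Samples of the same genotype also differed. WT 2 was above WT 1 for 8 of the 10 genes, against 49.1% of all tested genes, and promoter KO 2 was above promoter KO 1 for 9 of the 10, against 53.5% of all tested genes. The mean profile of the 10 genes, as log2(FPKM + 1) minus the mean of the gene over the 4 samples, was -0.58 and -0.34 in WT 1 and WT 2, and 0.34 and 0.58 in promoter KO 1 and 2. The 5 other tested genes whose profiles came closest to this mean were *S100a1*, *F3*, *Prss12*, *Phf11d* and *Gm13251*, with root mean square differences of 0.03 to 0.09 on the log2 scale over the 4 samples. *S100a1*, a calcium-binding protein, was the closest, at 14.3 and 17.3 FPKM in the WT pair and 29.1 and 32.5 FPKM in the promoter KO pair. *F3*, the tissue factor that starts coagulation, was at 1.82 and 1.99 FPKM in the WT pair and 4.34 and 5.17 FPKM in the promoter KO pair.

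RefSeq promoter windows of GRCm38.p6, from 250 bases before to 50 bases after the start, were used for 7 of the 10 genes, *Lama1*, *Lamc1* and *Nid2* being the others. Their GC content ranged from 55.3% for *Sparc* to 74.0% for *Col4a1*, with a median of 52.7% over all 32851 windows. GGGCGG, searched on both strands, occurred in the windows of *Col4a1*, *Col4a2*, *Hspg2*, *Lama5*, *Lamb1* and *Nid1* and in 35.7% of all windows. The windows of *Col4a1* and *Col4a2* share 78 bases, the 22 printed ones among them, so that the GGGCGG in those counts for both genes. CCAAT, searched likewise, occurred in those of *Col4a1*, *Col4a2*, *Lamb1* and *Nid1* and in 37.4% of all windows. TATAAA, found in 13.6% of all windows, and AGATAA, a sequence that GATA factors bind, found in 11.2%, occurred in 0 of the 7. Windows with GGGCGG belonged to called and uncalled genes alike, and these letters are a description of the sequence.

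Of 28 other basement membrane genes, 10 passed the filter, and limma called 1 higher and 0 lower at a Benjamini-Hochberg adjusted p under 0.05. An unadjusted p under 0.05 was reached by 2 of them upward and by 2 downward. Their median log2 fold change was -0.06. The called gene was *Col18a1*, the type XVIII collagen of basement membranes, whose level was 74.6 and 67.1 FPKM in the WT pair and 128.5 and 106.9 FPKM in the promoter KO pair. Its log2 fold change was 0.72, with a Benjamini-Hochberg adjusted p of 0.0422 by limma. The other chains of type IV collagen and the laminin chains other than the beta 2 chain were below the filter. The laminin and type IV collagen transcripts measured here were therefore mostly those of the genes *Lama1*, *Lama5*, *Lamb1*, *Lamc1*, *Col4a1* and *Col4a2*.

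Of 29 genes that process collagen and laminin in the secretory pathway and outside the cell, 23 were tested, with a median log2 fold change of 0.07. limma called 2 higher and 0 lower at an adjusted p under 0.05. An unadjusted p under 0.05 was reached by 4 of them upward and by 5 downward. The called genes were *Crtap*, part of the collagen prolyl 3-hydroxylation complex, with a log2 fold change of 0.80, and *Hspa5*, the chaperone BiP, with 0.45. *Hsp90b1*, the most abundant by the mean of the 4 samples but exceeded by *Ppib* in both WT samples and by *Hspa5* in promoter KO 1, was at 250.8 and 238.8 FPKM in the WT pair and 309.5 and 297.8 FPKM in the promoter KO pair, and was not called. Of 19 receptors for basement membrane, 15 were tested, and limma called 0 higher and 0 lower. An unadjusted p under 0.05 was reached by 2 of them upward and by 6 downward, and their median log2 fold change was -0.25. *Itgb1*, the integrin beta 1 chain and the most abundant of them by the mean of the 4 samples, though exceeded by *Dag1* in both promoter KO samples, was at 56.3 and 64.8 FPKM in the WT pair and 35.8 and 49.5 FPKM in the promoter KO pair. Of 24 matrix proteases and their inhibitors, 19 were tested, with *Ctsl* (cathepsin L, log2 fold change 1.01) called higher and *Adam19* (-0.88) called lower, and with a median of -0.20. At an unadjusted p under 0.05, 5 of the 19 were higher and 5 lower. The summed level of the 24 genes was 313.8 and 299.2 FPKM in the WT pair and 374.5 and 406.1 FPKM in the promoter KO pair.

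**Figure D4:**
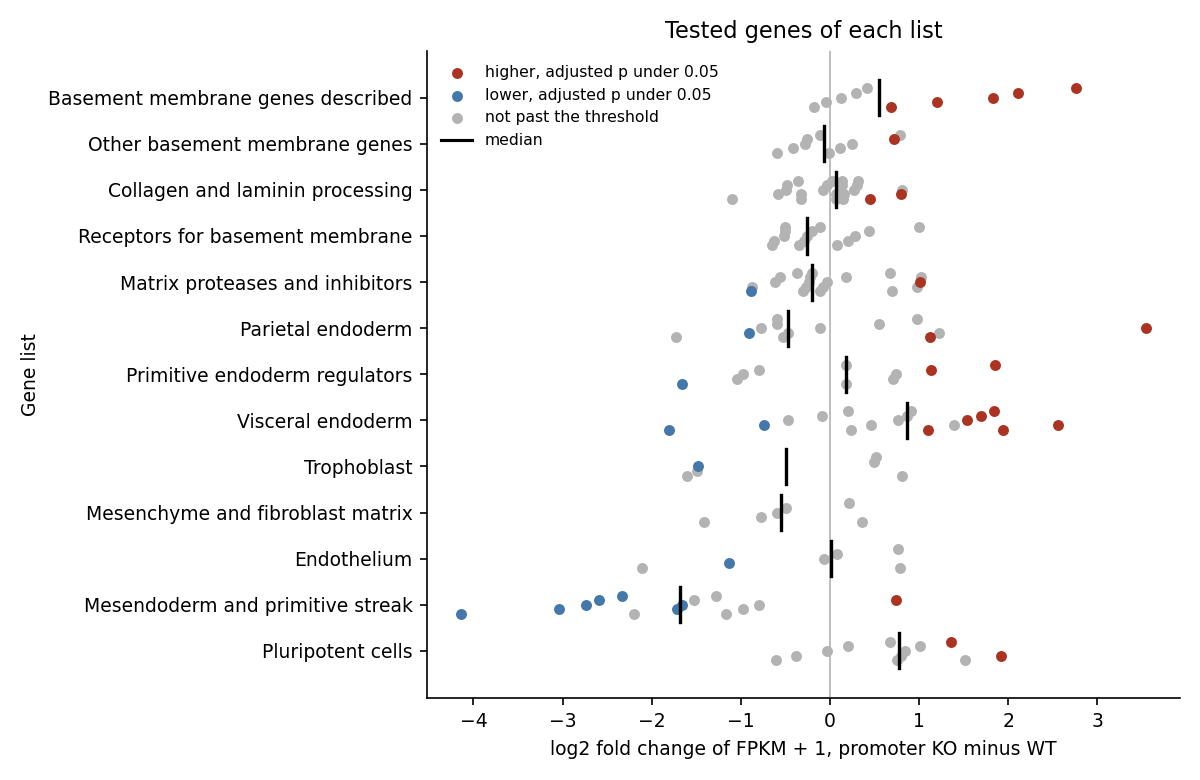
Log2 fold change of FPKM + 1, promoter KO minus WT, for each tested gene of the 10 basement membrane genes (top) and of the related and marker lists, red or blue where called higher or lower by limma at a Benjamini-Hochberg adjusted p under 0.05, with a black bar at the median. The median is 0.55 for the 10 genes, 0.86 for visceral endoderm markers, -0.47 for parietal endoderm markers and -1.68 for mesendoderm markers.

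The name parietal endoderm was checked against 15 further markers of that tissue, of which 4 were taken as defining. *Plat*, the tissue plasminogen activator, had 0.412 and 0.501 FPKM in the WT pair, and 1.37 and 2.45 FPKM in the promoter KO pair, with a log2 fold change of 0.97 and a Benjamini-Hochberg adjusted p of 0.0621 by limma. It was above both WT samples in both promoter KO samples, and it passed the filter through the promoter KO samples alone. *Pth1r*, the parathyroid hormone receptor, was at 3.20, 7.21, 6.73 and 8.61 FPKM in WT 1, WT 2, promoter KO 1 and promoter KO 2 and overlapped between genotypes. *Stra6*, the receptor that takes up retinol, did not pass the filter. Its level was 0.568 and 0.389 FPKM in WT 1 and WT 2, and it was 1.38 and 0.618 FPKM in promoter KO 1 and 2, and here too both promoter KO samples were above both WT samples. *Thbd*, thrombomodulin, was at most 0.156 FPKM in the 4 samples and was also below the filter. None of the 4 defining markers was at 0 in all samples and none was called, and the highest value among them was 8.61 FPKM. *Plat* and *Stra6* were thus higher in both promoter KO samples, at low levels, and *Pth1r* overlapped. Of all tested genes, 32.9% were higher in both promoter KO samples in this way. The label parietal endoderm rested on no called marker of the 4, so that the 10 genes are called basement membrane genes here.

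Over the 13 tested markers of parietal endoderm, a list in which *Krt8*, *Krt18* and *Vim* are widely expressed genes, limma called 2 higher and 1 lower, with a median log2 fold change of -0.47. At an unadjusted p under 0.05 they numbered 4 higher and 5 lower. *Srgn*, the proteoglycan serglycin, was at 2.33 and 0.254 FPKM in the WT pair and 20.8 and 24.9 FPKM in the promoter KO pair. *Fabp3*, a fatty acid binding protein and the most abundant of them by the mean of the 4 samples, though not in WT 1 or WT 2, was at 84.5 and 92.5 FPKM in the WT pair and 190.5 and 195.5 FPKM in the promoter KO pair. *Fst*, the activin antagonist follistatin, was the gene called lower, at 137.5 and 116.3 FPKM in the WT pair and 58.8 and 76.1 FPKM in the promoter KO pair. The summed level of the 15 markers was 566.2 and 795.9 FPKM in WT 1 and WT 2, and in promoter KO 1 and 2 it was 548.9 and 606.2 FPKM. The sums of the 2 genotypes overlapped.

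Primitive endoderm, from which parietal and visceral endoderm arise, also makes laminin and type IV collagen. Of its 10 regulators and markers, 3 of which (*Gata6*, *Sox17* and *Foxa2*) are also mesendoderm genes, limma called *Sox7* and *Dab2* higher and *Gata6* lower, with a median of 0.18. At an unadjusted p under 0.05, 4 of the 10 were higher and 4 lower. *Sox7* was at 0.289 and 0.221 FPKM in the WT pair and 1.87 and 1.66 FPKM in the promoter KO pair, which alone brought it past the filter. *Dab2*, an endocytic adaptor, was at 4.97 and 2.48 FPKM in the WT pair and 13.0 and 18.4 FPKM in the promoter KO pair. *Gata6* went the other way, from 12.8 and 21.7 FPKM in the WT pair to 4.13 and 5.18 FPKM in the promoter KO pair, and it is also a gene of definitive endoderm and mesoderm. *Gata4*, at 5.02 and 19.4 FPKM in the WT pair and 9.68 and 13.8 FPKM in the promoter KO pair, and *Pdgfra*, at 2.19 and 6.78 FPKM in the WT pair and 1.07 and 1.84 FPKM in the promoter KO pair, were not called. The summed level of the 10 genes was 123.2, 116.9, 70.0 and 105.6 FPKM in WT 1, WT 2, promoter KO 1 and promoter KO 2, and *Foxa2*, which definitive endoderm also expresses, was the most abundant.

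Of 20 markers of visceral endoderm, 17 were tested, and limma called 6 higher and 2 lower, while 9 were not called. At an unadjusted p under 0.05, 11 of the 17 were higher and 3 lower, against 15.0% and 15.6% of all tested genes. Of all tested genes, limma called 1.68% higher and 1.89% lower at an adjusted p under 0.05. *Cubn*, *Ihh* and *Apob* passed the filter through the promoter KO samples alone, so that they had to be higher there. All of them were among the 11, and *Cubn* and *Ihh* were among the 6. Of the other 14 markers, 4 were called higher and 2 lower, and their median log2 fold change was 0.66, in place of 0.86 over the 17, a comparison chosen after the data were seen. *Amn*, amnionless, was at 2.33 and 1.14 FPKM in the WT pair and 14.4 and 15.1 FPKM in the promoter KO pair. *Cubn*, the endocytic receptor cubilin that amnionless carries to the surface, was at 0.362 and 0.0686 FPKM in the WT pair and 3.09 and 4.29 FPKM in the promoter KO pair. Both are defining markers, as is *Ttr*, transthyretin, which was called higher, at 2.18 and 0.996 FPKM in the WT pair and 8.14 and 6.32 FPKM in the promoter KO pair. *Spink1* was also called higher, with a log2 fold change of 1.84, and *Cer1*, a marker of anterior visceral endoderm and of definitive endoderm, was called lower, with -1.80, as was *Hhex*, of the same tissues, with -0.74. Of the other defining markers, *Afp* was at 1.25 and 0.0242 FPKM in the WT pair and 2.18 and 3.97 FPKM in the promoter KO pair and was not called, and *Apoa4* and *Hnf4a* were below the filter. None of the 6 defining markers was at 0 in all samples. The summed level of the 20 markers was 707.0 and 685.7 FPKM in WT 1 and WT 2, and in promoter KO 1 and 2 it was 906.9 and 1042 FPKM, most of it from *Apoe*. The part of such cells in the level of the basement membrane genes was not tested.

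**Figure D5:**
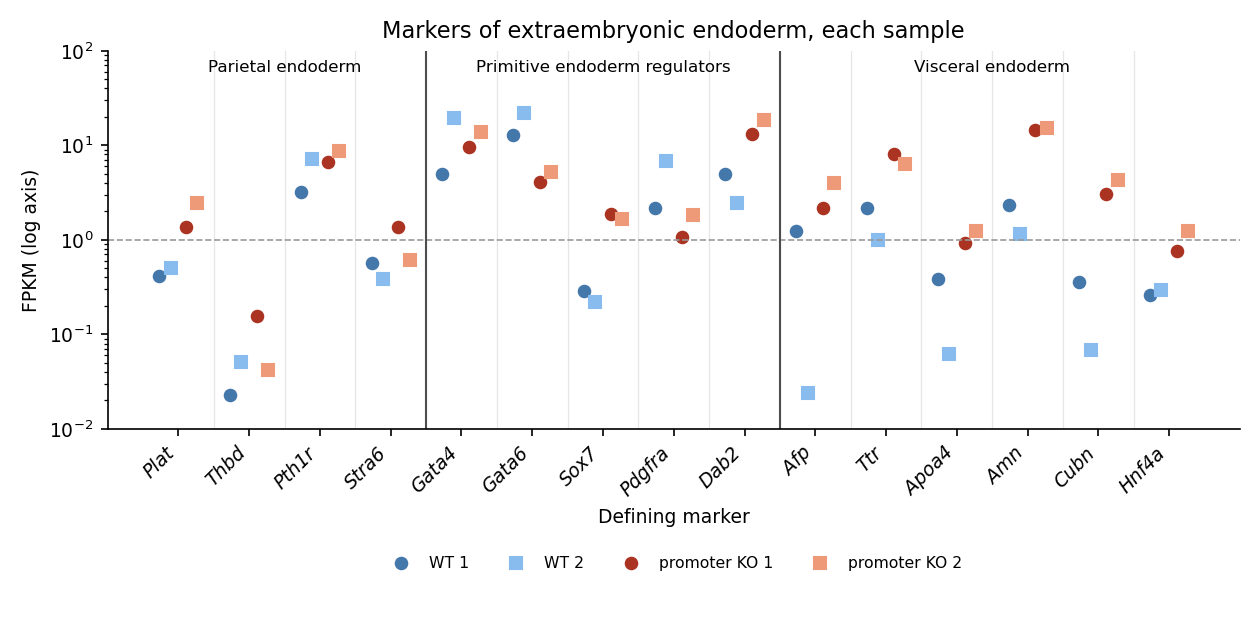
Level of the defining markers of parietal endoderm, primitive endoderm and visceral endoderm in each sample, in FPKM on a log axis, with circles for replicate 1, squares for replicate 2, and a dashed line at 1 FPKM, the level used to filter genes. *Plat*, *Stra6*, *Sox7*, *Dab2*, *Afp*, *Ttr*, *Apoa4*, *Amn*, *Cubn* and *Hnf4a* lie higher in both promoter KO samples than in both WT samples, *Gata6* and *Pdgfra* lie lower in both, *Pth1r* and *Gata4* overlap, and *Thbd* stays below 0.16 FPKM. Of all tested genes, 32.9% lie higher in both promoter KO samples and 32.4% lie lower in both.

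The labelled cell type, mesendoderm, was checked in the same way. The defining markers *T*, *Mixl1*, *Eomes* and *Gsc* were present in each sample, and the lowest value, 5.56 FPKM, was that of *Mixl1* in promoter KO 1. Each of the 4 was lower in both promoter KO samples than in both WT samples, as were 32.4% of all tested genes. *Mixl1* and *Gsc* were called lower. *T* was at 306.3 and 448.3 FPKM in the WT pair and 50.55 and 127.0 FPKM in the promoter KO pair, and *Mixl1* was at 63.0 and 76.3 FPKM in the WT pair and 5.56 and 15.9 FPKM in the promoter KO pair. Of 14 mesendoderm and primitive streak genes, all of them tested, limma called 7 lower and 1, *Nodal*, higher. An unadjusted p under 0.05 was reached by 1 of them upward and by 13 downward, against 15.0% and 15.6% of all tested genes, and their median log2 fold change was -1.68. Among those that fell most, *Mesp1*, of early mesoderm, was at 26.99 and 100.7 FPKM in the WT pair and 0.759 and 4.24 FPKM in the promoter KO pair, and *Lhx1*, of the early organizer, was at 45.5 and 59.9 FPKM in the WT pair and 4.07 and 7.21 FPKM in the promoter KO pair. *Evx1*, of the primitive streak, was called lower too, with a log2 fold change of -2.59. Their summed level was 1096 and 1349 FPKM in WT 1 and WT 2, and in promoter KO 1 and 2 it was 332.8 and 530.9 FPKM, with *T* as the most abundant by the mean of the 4 samples and *Nodal* above it in promoter KO 1. Among 12 genes of pluripotent cells, *Utf1* and *Dnmt3l* were called higher and 0 were called lower by limma. An unadjusted p under 0.05 was reached by 6 of them upward and by 1 downward, against 15.0% and 15.6% of all tested genes, and their median log2 fold change was 0.78. Their sum was 2188 and 1920 FPKM in WT 1 and WT 2, and in promoter KO 1 and 2 it was 3211 and 2732 FPKM, with *Pou5f1* as the most abundant. *Utf1*, *Dnmt3l* and *Esrrb*, all on this list, had been named by the study from the same transcriptome as not declining in promoter KO. The calls of *Utf1* and *Dnmt3l* are therefore not an independent check. The genotypes therefore differed in the markers of several cell types at once, and the part of this difference in the level of the basement membrane genes was not tested.

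Trophoblast, endothelium and mesenchyme also make or meet basement membrane. Of 13 trophoblast markers, 6 were tested, with 0 called higher and *Tfap2c* called lower by limma, where 1.89% of all tested genes were called lower. At an unadjusted p under 0.05 they numbered 2 higher and 1 lower. Their median was -0.49, but 0.50 without *Hand1*, which passed the filter through the WT samples alone, so that the list gave no direction. Their sum was 22.9, 60.8, 21.4 and 21.85 FPKM in WT 1, WT 2, promoter KO 1 and promoter KO 2, *Cdx2* was the most abundant in WT 2 alone, and the defining markers *Tpbpa* and *Prl3d1* were at 0, with *Elf5* and *Plac1* below the filter. Of 10 endothelial markers, 6 were tested, with 0 called higher and *Flt1* called lower by limma. At an unadjusted p under 0.05 they numbered 2 higher and 2 lower, among them *Tek*, which passed the filter through the promoter KO samples alone and was higher, and *Kdr*, which passed it through the WT samples alone and was lower. Their median was 0.01, their sum was 43.2, 58.2, 45.95 and 39.6 FPKM in the same order, *Egfl7* was the most abundant, and the defining marker *Emcn* was at 0, with *Cdh5* and *Tie1* below the filter. Of 14 genes of mesenchyme and fibroblast matrix, 6 were tested, and limma called 0 higher and 0 lower. An unadjusted p under 0.05 was reached by 0 of them upward and by 4 downward, where 15.6% of all tested genes were lower in this way, and their median log2 fold change was -0.55. Of these 6, *Fbn1* passed the filter through the promoter KO samples alone, and *Col1a1* and *Col6a2* through the WT samples alone. The defining marker *Lum* was at 0, and *Col1a2*, *Col3a1* and *Dcn*, 3 others of the 5, were below the filter. Their sum was 83.6 and 243.1 FPKM in WT 1 and WT 2, and in promoter KO 1 and 2 it was 71.35 and 56.0 FPKM, most of it from *Fn1*, fibronectin, and WT 2 stood apart from the other samples.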

How the data were processed

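RNA-seq of 4 day 3 EB samples was analysed, 2 per genotype. The deposited values, 1 file per sample, name no unit and were taken as FPKM, since the authors estimated them with Cufflinks and Cuffnorm on GRCm38/mm10. The aligner is given as TopHat in the methods and as HISAT2 2.1.0 in the submitters' processing notes, and the methods call the unit RPKM. No counts were used. The members and gene lists were chosen with earlier results of these data known.

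limma 3.58.1 in R 4.3.3, with an intensity trend, was fitted to log2(FPKM + 1) with genotype as the only term, in genes at 1 FPKM or more in 2 or more samples. P-values were adjusted over all 11941 tested genes by the Benjamini-Hochberg method. The fit was tested on simulated data. From the lists, the defining markers, the most abundant gene by the mean of the 4 samples and up to 4 called genes with the largest change were named. *Hhex*, *Nodal*, *Krt8*, *Krt18*, *Vim*, *Sox17*, *Ihh*, *Apob*, *Fbn1*, *Col6a2*, *Kdr*, *Ppib*, *Dag1* and *Esrrb* were named after their values were seen. Depth was estimated from genes of a single GENCODE M21 transcript, with fragments assumed to be 200 bases long. Symbols were matched to RefSeq for 23151 rows directly and for 1054 by an older symbol. Near-identical copies were searched with BLAST 2.17.0 at 95% identity over 200 bases. The alternatives were other pseudocounts, filters and scalings, limma without the trend, a replicate block, and each sample left out.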

Additional observations from a re-analysis of the deposited data

How the results depend on the processing

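The 10 genes were called 5 higher and 0 lower, and the 11941 tested genes 201 higher and 226 lower. With genes at low values kept, 0 of the 10 and 0 of 18215 tested genes were called either way, and the cause was not tested. At a mean of at least 5 FPKM, with fewer genes tested, 108 genes were lower and 95 higher, and the 10 genes gave 5 calls, with *Nid1* left out by the filter. Without the trend, 27 were lower, 55 higher and 3 of the 10 higher, with *Lamc1* (limma adjusted p 0.0644, range over the alternatives 0.026 to 0.210) and *Sparc* (0.0617, range 0.00719 to 0.142) lost. Centring each sample on its median gave 126 lower and 157 higher, with 5 of the 10 higher. Over all tested genes, the deviations of same-number samples from their genotype means had a correlation of 0.03, which cannot show whether such samples were paired. Among the 10 genes, WT 2 was above WT 1 for 8 and promoter KO 2 above promoter KO 1 for 9, against 49.1% and 53.5% of all tested genes. With the number as a block, 667 genes were lower, 535 higher and 6 of the 10 higher. *Lamb1* was gained, with a limma adjusted p of 0.0472 in place of 0.0969. Leaving out 1 sample, with the lone sample of a genotype assumed to vary like the other genotype, gave 0 to 4 higher of the 10, 0 to 248 genes lower and 0 to 238 higher. The 0 came without WT 2 and without promoter KO 1. Over these fits the log2 fold change of *Nid1* ran from -0.26 to 0.16, positive without WT 2 and, at 0.0096, without promoter KO 1, and that of *Hspg2* from -0.40 to 0.033, positive without WT 2. The other 8 genes kept their direction under the alternatives run. With a pseudocount of 0.1, 5 of the 10 were called higher, and of all tested genes 174 were higher and 174 lower. Quantile normalization likewise left 5 of the 10 called higher, with 165 of all tested genes higher and 169 lower. The ratio of mean FPKM without a pseudocount gave *Lama1* a log2 ratio of 3.33 in place of 2.76. Leaving out the genes that reached 1 FPKM in samples of a single genotype, chosen after the data were seen, moved the median log2 fold change of visceral endoderm markers from 0.86 to 0.66, of mesenchyme genes from -0.55 to -0.77 and of trophoblast markers from -0.49 to 0.50. Depth limited the lowest gene, *Lama1*, to about 350 fragments in its lowest sample.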
